A study of Mus musculus with 5 samples.

Results

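The 8 genes Erbb3, Cdh19, Foxd3, Gfra3, Art3, L1cam, Tfap2a and Scn7a, which mark the Schwann cell lineage and its precursor and immature stages, were compared between sciatic nerves of Ebf2-/- and wild-type newborn mice. They were taken by symbol from the array's annotation, where each had 1 probe set carrying that symbol alone, so that 8 of the 9407 gene symbols in the table of 10361 probe sets were described. Ebf2 encodes a member of the early B cell factors, which bind DNA and regulate transcription. The knockout (KO) group held pools 2 and 4, of Ebf2-/- nerves, and the wild-type (WT) group held pools 1, 9 and 11, of Ebf2+/+ nerves. Every pool consisted of 12 sciatic nerves taken at postnatal day 2 from pups of heterozygous parents on a C57Bl6N background, the labels give no treatment of the pups, and 1 array was hybridised per pool. The labels do not say how many animals gave a pool or which part of Ebf2 the mutant allele lacks, and they name no deletion limited to a cell type. A pool holds whole nerves with all their cell types, so fewer cells of a type and less RNA per cell cannot be told apart in any value below. All levels are log2 expression values, and all differences are KO minus WT on the log2 scale.

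Schwann cells descend from the neural crest through Schwann cell precursors, which travel along growing axons, and immature Schwann cells, which either wrap single large axons in myelin or enclose several small ones without myelin. Neuregulin-1 on axons binds ErbB3, which signals through its partner ErbB2 and keeps precursors and immature cells alive and dividing. Of the other genes described, Cdh19 encodes a cadherin of the Schwann lineage, L1cam an adhesion molecule that is shut off as Schwann cells myelinate and is also carried by axons, and Gfra3 the receptor subunit that binds artemin together with Ret. Foxd3 and Tfap2a encode transcription factors of the neural crest that are active in precursors. Art3 encodes a membrane-anchored member of the ADP-ribosyltransferase family, and Scn7a an atypical sodium channel subunit that Schwann cells carry.

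The promoter letters were searched because the mutant lacks a DNA-binding factor. RefSeq windows on GRCm38.p6, running from 250 bases before to 50 bases after a start site, were matched for 5 of the 8 genes (Foxd3, Art3, L1cam, Tfap2a and Scn7a), which had 9 windows of 300 bases in all. Both strands were searched for the EBF motif (TCCC and GGGA with 2 bases of any kind between them), for the SOX motifs ACAAAG and ACAATG, and for the motif GCCNNNGGC of the Tfap2 family. The EBF motif was in 0 of the 9 windows and in 0.904% of all 32851 windows of the table, and the Tfap2 motif was in 0 of the 9 and in 16.6% of all. The motif ACAATG was in 0 of the 9 windows and in 12.6% of all. The motif ACAAAG was in 1 of the 9 windows and in 18.7% of all. That window belongs to Art3, the gene with a matched promoter whose KO and WT pools did not overlap, and is shown for that reason. It is window 3 of Art3, and windows 1 and 2 of that gene, at other start sites, held none of the motifs. The window shown lies on the plus strand at chr5:92387884-92388183. Capitals mark the match on the opposite strand, which begins 43 bases before the start site (position -43).
Art3 promoter: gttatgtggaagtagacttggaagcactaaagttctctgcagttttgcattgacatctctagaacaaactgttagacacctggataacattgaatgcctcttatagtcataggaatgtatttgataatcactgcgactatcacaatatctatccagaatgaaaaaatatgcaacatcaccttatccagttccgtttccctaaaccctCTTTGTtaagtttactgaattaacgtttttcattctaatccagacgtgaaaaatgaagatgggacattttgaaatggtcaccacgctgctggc

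Ebf2 itself read 9.25 and 8.74 in KO pools 2 and 4 against 11.55, 11.13 and 11.40 in WT pools 1, 9 and 11, which fitted the label of every array. The nerve label was met by Sox10, the transcription factor that defines the Schwann lineage, which read from 11.24 to 11.65 over the 5 pools, and by Mbp, for myelin basic protein, which read from 12.50 to 12.83. The arrays were not equal in other respects. Array medians were 9.11 and 8.93 in KO pools 2 and 4, against 9.04 to 9.11 in the WT pools. The 17 measured of 21 keratinocyte genes averaged 7.38 and 7.59 in KO pools 2 and 4, against 7.35, 8.91 and 8.35 in WT pools 1, 9 and 11. The 28 skeletal muscle genes, all of which were measured, averaged 9.93 and 10.16 in the KO pools, against 9.49, 10.81 and 10.67 in the WT pools. The 15 measured of 21 axon and neuron genes averaged 8.10 and 8.29 in the KO pools, against 8.06, 9.19 and 8.13 in the WT pools, so WT pool 9 alone stood apart. In every probe set of the table the fourth-ranked value exceeded the lowest by at least 0.175. A gene with less spread than that between the pools is therefore not analysed here. All 8 genes had more, the least being 0.192 for Foxd3 and 0.213 for Scn7a.

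No gene of the 8 passed the test between genotypes. At a limma adjusted p below 0.05, 0 of 8 were called, against 0.676% of all probe sets (70 of 10361). At an unadjusted p below 0.05, 3 of 8 were past the threshold (Cdh19, Gfra3 and Erbb3), against 14.3% of all, and with a change of at least 1.5-fold in addition 0 of 8 were, against 4.80% of all. The median difference of the 8 genes was 0.04 and that of all probe sets -0.002, with 5 genes above 0 and 3 below. This median joins genes that lay on opposite sides, since Erbb3, Cdh19 and Art3 were lower in KO, Gfra3, L1cam and Scn7a were higher, and Foxd3 and Tfap2a were near 0. The median absolute difference was 0.32 for the 8 genes and 0.18 for all probe sets. The KO and WT pools did not overlap for 4 of the 8 against 30.8% of all probe sets. Of these, 3 had KO below (Erbb3, Cdh19 and Art3), against 13.3% of all, and 1 had KO above (Gfra3), against 17.5% of all. KO pool 4 was the lowest or the highest of the 5 pools for 6 of the 8 genes, against 60.9% of all.

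**Figure D1:**
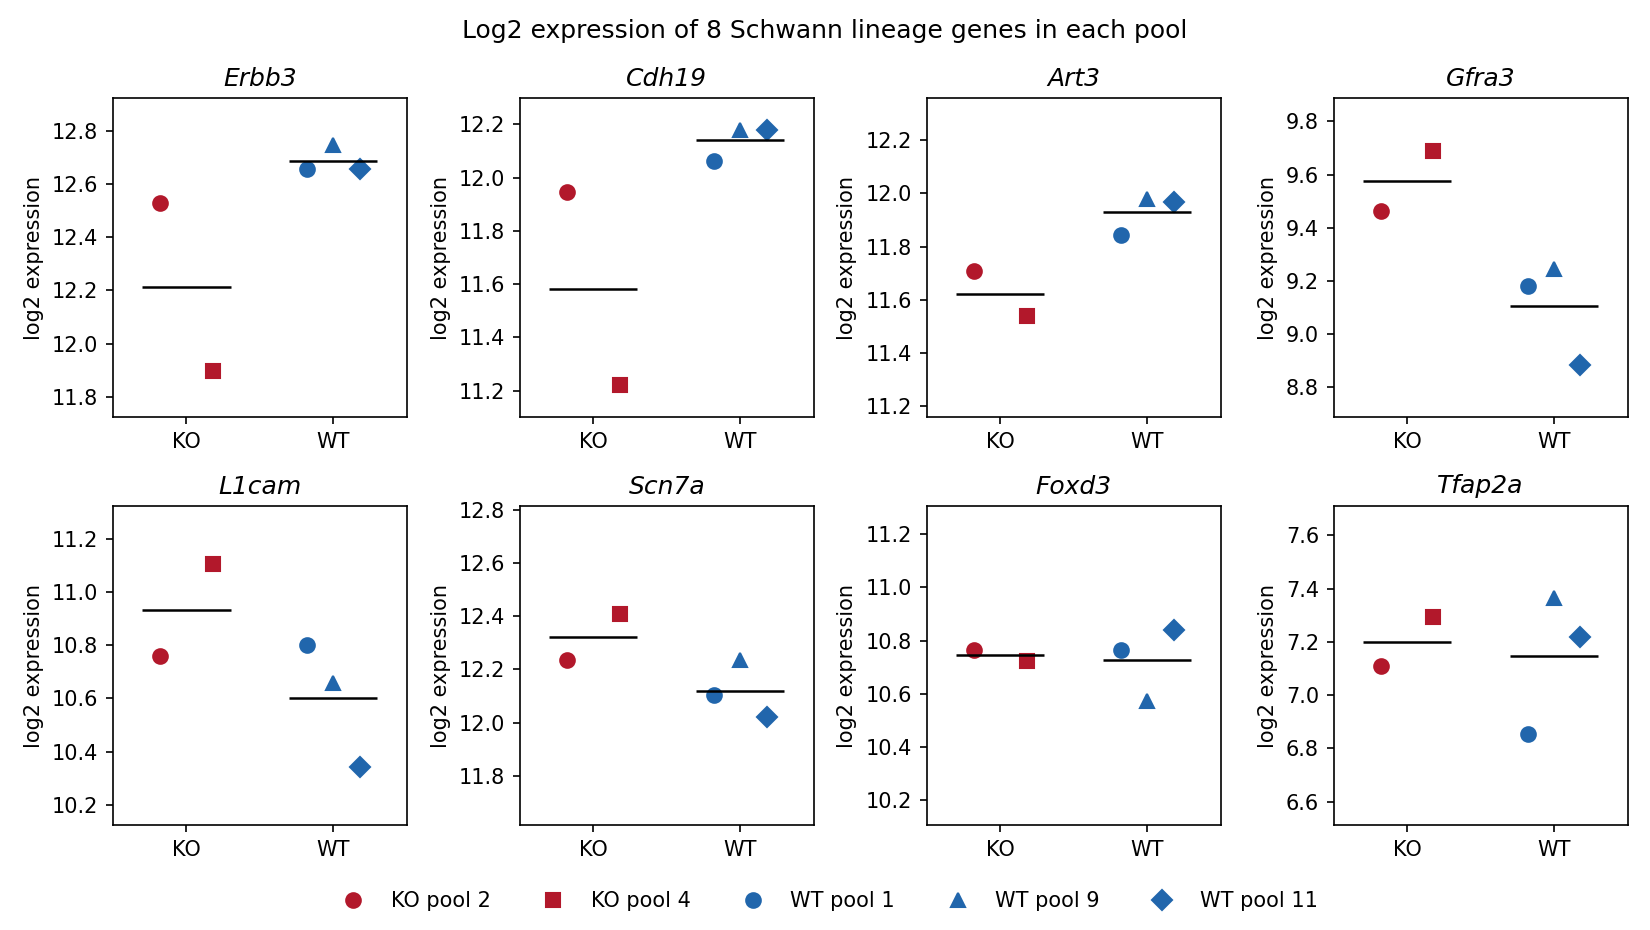
Each panel plots the log2 expression of 1 gene (vertical axis, the same length of scale in every panel) in the 2 KO pools on the left and the 3 WT pools on the right, with a bar at each group mean. Erbb3, Cdh19 and Art3 have both KO pools below the WT pools, with KO pool 4 at 11.90 for Erbb3 and 11.22 for Cdh19, and Gfra3 has both above.

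Erbb3, the neuregulin receptor subunit, read 12.53 and 11.90 in KO pools 2 and 4, against 12.65, 12.75 and 12.66 in WT pools 1, 9 and 11. The WT pools lay within 0.092 of each other and the KO pools 0.629 apart, and KO pool 4 was the lowest of the 5. The difference was -0.47 (SE 0.19, 95% interval from -0.86 to -0.08), a 1.39-fold lower level, and did not pass (limma adjusted p = 0.243). It was -0.16 from KO pool 2 alone and -0.79 from KO pool 4 alone, so KO pool 4 decided its size. Against WT pool 1 alone it was -0.44.

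Gfra3, the artemin receptor subunit, read 9.46 and 9.69 in KO pools 2 and 4, against 9.18, 9.25 and 8.88 in WT pools 1, 9 and 11. Both KO pools were above the 3 WT pools, and WT pool 11 was the lowest. The difference was 0.47 (SE 0.18, 95% interval 0.10 to 0.84), a 1.39-fold higher level, and it did not pass (limma adjusted p = 0.214). It was 0.36 from KO pool 2 alone and 0.59 from KO pool 4 alone, and 0.39 against WT pool 1 alone.

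Cdh19, the lineage cadherin, had the largest difference of the 8 and stood at rank 599 of 10361 probe sets by absolute difference. It read 11.95 and 11.22 in KO pools 2 and 4, against 12.06, 12.18 and 12.18 in WT pools 1, 9 and 11. As with Erbb3, the WT pools were close (range 0.114), KO pool 2 lay slightly below them and KO pool 4 far below. The difference was -0.56 (SE 0.19, 95% interval from -0.96 to -0.15), a 1.47-fold lower level, with limma adjusted p = 0.182. It was -0.19 from KO pool 2 alone and -0.92 from KO pool 4 alone.

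L1cam, the adhesion molecule of immature Schwann cells and axons, read 10.76 and 11.10 in KO pools 2 and 4, against 10.80, 10.66 and 10.34 in WT pools 1, 9 and 11. KO pool 2 lay below WT pool 1, so the groups overlapped, and KO pool 4 was the highest and WT pool 11 the lowest. The difference was 0.33 (SE 0.18, 95% interval from -0.05 to 0.72) and did not pass (limma adjusted p = 0.418). It was 0.16 from KO pool 2 alone and 0.50 from KO pool 4 alone, 0.20 without WT pool 11 and 0.13 against WT pool 1 alone. The 29 measured of 30 cell cycle genes averaged 10.81 and 10.82 in KO pools 2 and 4, against 10.78, 10.31 and 10.18 in WT pools 1, 9 and 11. L1cam had the same order of the 3 WT pools, and so did the endothelium, the pericyte and smooth muscle and the macrophage genes. The order is therefore not particular to cell cycle genes, and the part of dividing cells in the difference of L1cam was not tested. The part of the axon and neuron genes, which were high in WT pool 9, was not tested either.

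Art3 read 11.71 and 11.54 in KO pools 2 and 4, against 11.85, 11.98 and 11.97 in WT pools 1, 9 and 11. Both KO pools were below all WT pools and differed from each other by 0.17, which was less than for Erbb3 or Cdh19. The difference was -0.31 (SE 0.17, 95% interval from -0.66 to 0.04), with limma adjusted p = 0.411. It was -0.22 from KO pool 2 alone and -0.39 from KO pool 4 alone.

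Scn7a, the atypical sodium channel subunit, read 12.23 and 12.41 in KO pools 2 and 4, against 12.10, 12.23 and 12.02 in WT pools 1, 9 and 11. KO pool 2 equalled WT pool 9, so the groups touched, and KO pool 4 was the highest. The difference was 0.20 (SE 0.17, 95% interval from -0.15 to 0.55), with limma adjusted p = 0.602. It was 0.12 from KO pool 2 alone and 0.29 from KO pool 4 alone.

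The neural crest transcription factors showed the smallest differences of the 8 genes. Foxd3 read 10.77 and 10.72 in KO pools 2 and 4, against 10.77, 10.57 and 10.84 in WT pools 1, 9 and 11. The KO pools lay inside the range of the WT pools, and the difference was 0.02 (SE 0.17, 95% interval from -0.33 to 0.37, limma adjusted p = 0.959). Its sign changed without WT pool 9 (-0.06), without KO pool 2 (-0.002), against WT pool 1 alone (-0.02) and after quantile normalisation (-0.03).

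Tfap2a read 7.11 and 7.29 in KO pools 2 and 4, against 6.86, 7.37 and 7.22 in WT pools 1, 9 and 11. Both KO pools lay inside the WT range, and the difference was 0.05 (SE 0.18, 95% interval from -0.33 to 0.43, limma adjusted p = 0.883). Its sign changed without WT pool 1 (-0.09) and without KO pool 4 (-0.04), and it was 0.35 against WT pool 1 alone. Tfap2a was the only 1 of the 8 with a mean level below the 25th percentile of the table, and no detection call was used here. Tfap2a is also a gene of epidermis and of melanocytes. The highest and the lowest pool for Tfap2a, WT pools 9 and 1, were also the highest and the lowest for the keratinocyte genes. They were so too for the skeletal muscle, the axon and neuron and the melanocyte genes, so this likeness is not particular to keratinocyte genes. The part of any of these lists in the values of Tfap2a was not tested. The 8 measured of 10 melanocyte genes averaged 7.67 and 7.60 in KO pools 2 and 4, against 7.55, 7.89 and 7.62 in WT pools 1, 9 and 11. For Foxd3, Tfap2a and Scn7a the 95% intervals stayed inside a 1.5-fold change in either direction (0.585 on the log2 scale). Those of the other 5 genes reached past it in 1 direction. The intervals are not corrected for the number of genes and rest mostly on limma's prior, which is taken from all probe sets. Without moderation by that prior the SE of Tfap2a rose from 0.182 to 0.208, so a 1.5-fold change of Tfap2a is not excluded by its interval.

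**Figure D2:**
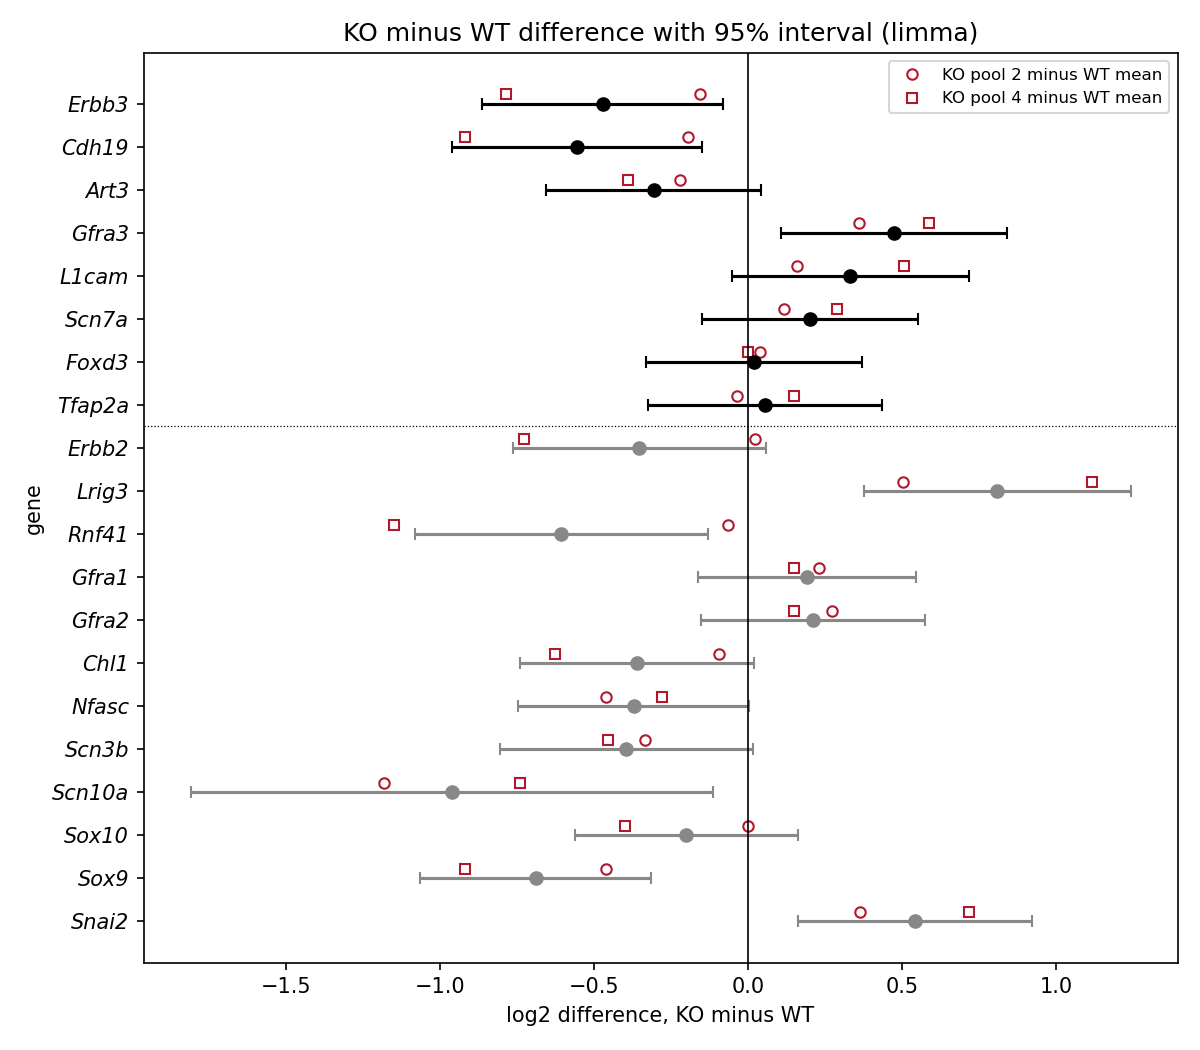
Black points are the KO minus WT differences (log2, horizontal axis) of the 8 genes with 95% limma intervals, grey points those of 12 related genes, and open red symbols the 2 KO pools each set against the mean of the 3 WT pools. The open symbols are far apart for Erbb3 (-0.16 and -0.79), Cdh19, Erbb2 and Rnf41, and close for Art3 and Scn7a.

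Genes of neuregulin signalling were measured beside Erbb3. Of 43 genes listed for ligands, receptors, regulators and downstream proteins, 22 were measured and 0 were called in either direction, against 0.676% of all probe sets. The median difference was 0.01, beside -0.002 for all probe sets. Nrg1 is not analysed here. Erbb2, for the signalling partner of ErbB3, read 11.18 and 10.44 in KO pools 2 and 4, against 11.23, 11.11 and 11.15 in WT pools 1, 9 and 11. KO pool 2 lay among the WT pools and KO pool 4 below all of them, and the difference of -0.35 (SE 0.20, limma adjusted p = 0.420) became 0.02 without KO pool 4. The widest differences of the list were those of Lrig3, of a family of membrane proteins that act on receptor tyrosine kinases (0.81, SE 0.21, limma adjusted p = 0.0702), and of Rnf41, a ubiquitin ligase that lowers ErbB3 (-0.61, SE 0.23, limma adjusted p = 0.217). Lrig3 read 10.52 and 11.13 in the KO pools, against 10.34, 9.69 and 10.02 in the WT pools, with no overlap, and its difference was 0.50 without KO pool 4. Rnf41 read 10.11 in KO pool 2, the same as in WT pools 1 and 11, and 9.02 in KO pool 4, without which its difference was -0.06.

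Genes of the artemin and glial cell line-derived neurotrophic factor family were measured beside Gfra3. Of 15 listed, 6 were measured and 0 called, against 0.676% of all probe sets, with a median of 0.01. The receptor Ret and the ligand Artn are not analysed here. The related receptor subunit genes Gfra2 and Gfra1 had differences of 0.21 (SE 0.17, limma adjusted p = 0.598) and 0.19 (SE 0.17, limma adjusted p = 0.618), the last at 0.11 without WT pool 9. Gfra2 turned to -0.002 against WT pool 1 alone.

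Relatives of the other genes gave no call either, but only 0.676% of all probe sets were called, so 0 calls in a short list says little about its genes. Of 25 genes of the L1 family, contactins and their partners 17 were measured and 0 called (median -0.11), with Nfasc, for the adhesion molecule neurofascin, at -0.37 (SE 0.18, limma adjusted p = 0.353) and Chl1, a close relative of L1cam, at -0.36 (SE 0.18, limma adjusted p = 0.375). Chl1 read 10.92 and 10.39 in KO pools 2 and 4, against 11.11, 10.97 and 10.97 in WT pools 1, 9 and 11, below in both KO pools where L1cam was not, and its difference was -0.09 without KO pool 4. Of 12 cadherins of the type that includes Cdh19, 6 were measured and 0 called (median 0.06), with the endothelial Cdh5 at 0.43 (SE 0.18, limma adjusted p = 0.270), or 0.14 against WT pool 1 alone, and Cdh11 at 0.14 (SE 0.17, limma adjusted p = 0.696). Of 10 genes of the Tfap2 family and its cofactors 7 were measured and 0 called (median 0.02), with the cofactor gene Cited2 at 0.44 (SE 0.19, limma adjusted p = 0.287), which was 0.15 without KO pool 4 and 0.73 without KO pool 2, and Kctd1, for an inhibitor of the family, at -0.25 (SE 0.18, limma adjusted p = 0.553), which became 0.03 without KO pool 4. Of 3 further Foxd genes 3 were measured and 0 called, with differences from 0.01 to 0.40. Of 5 further Art genes 1 was measured, Art1, at -0.34 (SE 0.21, limma adjusted p = 0.481).

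Of 15 other sodium channel genes 4 were measured and 0 called (median -0.27), against 0.676% of all probe sets called. Scn10a, a channel of sensory neurons, read 6.38 and 6.82 in KO pools 2 and 4, against 6.82, 9.05 and 6.82 in WT pools 1, 9 and 11, so its difference of -0.96 (SE 0.41, limma adjusted p = 0.280) came from WT pool 9, where the axon and neuron genes were high, and was -0.22 without that pool. Scn3b, for an auxiliary subunit, was at -0.40 (SE 0.20, limma adjusted p = 0.370), or -0.18 without WT pool 11 and -0.11 against WT pool 1 alone. Scn7a read 12.23 in WT pool 9, within 0.213 of the other WT pools.

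Other genes of the lineage were measured as well, and the calls among them stand beside 0.676% of all probe sets called in either direction. Of 26 further neural crest factors 20 were measured and 0 called (median -0.01), with Sox9 at -0.69 (SE 0.18, limma adjusted p = 0.0749) and Snai2 at 0.54 (SE 0.18, limma adjusted p = 0.165). Of 41 other genes listed for Schwann cell precursors and immature Schwann cells 24 were measured, 2 rose (Moxd1 and Id3), 0 fell and 22 did not pass, with a median of 0.02. Moxd1, a monooxygenase gene that is also on the perineurium list, rose 3.06-fold (1.62, SE 0.20, limma adjusted p = 0.000122), and Id3, which blocks basic helix-loop-helix factors from binding DNA, rose 1.77-fold (0.83, SE 0.18, limma adjusted p = 0.0380). In the fits without KO pool 2, KO pool 4, WT pool 1 or WT pool 9, which called 0, 0, 6 and 1 probe sets over the whole table, the differences were 1.45 to 1.80 for Moxd1 and 0.58 to 1.07 for Id3 and neither passed (limma adjusted p from 0.0692 to 0.782 for Moxd1 and from 0.122 to 0.831 for Id3). With so few calls over the whole table these fits say little about single genes. Without WT pool 11 Id3 was at 0.83 and did not pass (limma adjusted p = 0.0859). That fit gave every gene named here the same SE (0.256), so a gene's own spread did not enter it. Gap43, a growth-associated protein of axons and immature Schwann cells, was at 0.19 (SE 0.19, limma adjusted p = 0.645). It was at 0.06 without WT pool 11 and at 0.36 without WT pool 9. Sox10 read 11.64 and 11.24 in KO pools 2 and 4, against 11.65, 11.63 and 11.65 in WT pools 1, 9 and 11, so that the difference of -0.20 (SE 0.17, limma adjusted p = 0.609) lay in KO pool 4. For comparison, 7 of 14 measured of 20 myelin genes fell (Pmp2, Egr2, Cldn19, Gldn, Mag, Ncmap and Fa2h), and 0 rose, against 0.676% of all probe sets called. The median of the myelin genes was -0.75. None of the 7 passed without WT pool 1, without WT pool 9, after quantile normalisation or after each array was centred on its median. Against WT pool 1 alone Ncmap was at -0.55 and Fa2h at -0.56. In the 4 fits with few calls named above the differences of the 7 were all at or below -0.64, the value of Fa2h without KO pool 4. Without that pool Pmp2 was at -1.42 and Egr2 at -0.65, against -2.14 and -1.13 with all pools. Ncmap (-0.85) and Fa2h (-0.79) did not pass without WT pool 11, in the fit with the same SE for every gene named here.

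The KO pools differed from each other in opposite directions among the 8 genes. KO pool 4 stood below KO pool 2 by 0.725 for Cdh19, 0.629 for Erbb3, 0.17 for Art3 and 0.042 for Foxd3, and above it by 0.345 for L1cam, 0.227 for Gfra3, 0.185 for Tfap2a and 0.172 for Scn7a. Over all probe sets the median of KO pool 4 minus KO pool 2 was 0, and 48.1% were lower in KO pool 4. Sox10 was lower in KO pool 4 by 0.399 and Erbb2 by 0.749. The myelin genes averaged 10.13 and 9.79 in KO pools 2 and 4, against 10.54, 10.91 and 10.67 in WT pools 1, 9 and 11. Among them KO pool 4 minus KO pool 2 was uneven. It was widest for Pmp2 (-1.438), Egr2 (-0.964) and Cldn19 (-0.546), and small for Mbp (-0.098), Cnp (-0.084), Ugt8a (0.02) and Gjb1 (0.011). The median over the whole array was lowest in KO pool 4. After each array was centred on its median the differences were -0.41 for Erbb3 (limma adjusted p = 0.417) and -0.50 for Cdh19 (limma adjusted p = 0.396).

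Likeness of pattern was measured as the root mean square difference over the 5 pools after each gene was centred on its own mean, which is a description over 5 points. Among the 28 pairs of the 8 genes Erbb3 and Cdh19 were the closest (0.064) and Cdh19 and Gfra3 the farthest (0.604), with Gfra3 and L1cam next closest (0.104). Among all 9410 other probe sets with 1 symbol, Erbb3 was at place 20 for likeness to Cdh19, and Cdh19 at place 75 for likeness to Erbb3, while Erbb2 was at place 316 and Sox10 at place 923 for likeness to Erbb3. The 3 genes most like Erbb3 were Nudt12 (0.014), A130010J15Rik (0.022) and Sh3pxd2a (0.025), and those most like Cdh19 were B3galt2 (0.028), Zfp276 (0.030) and Maf (0.032). Those most like Gfra3 were Dpysl3 (0.039), Nnmt (0.050) and Grm7 (0.057), and those most like L1cam were Dna2 (0.028), Cacna1g (0.034) and Uhrf1 (0.037). Nr2c2ap (0.020), Rasgrp2 (0.025) and Zfp661 (0.025) were closest to Art3. For Scn7a they were 2310030G06Rik (0.012), Rgs17 (0.021) and Shank1 (0.026). Ifi208 (0.014), 4930426L09Rik (0.016) and Prkacb (0.019) were closest to Foxd3, and Cebpa (0.028), Tafa3 (0.029) and C2cd4c (0.031) to Tfap2a.

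**Figure D3:**
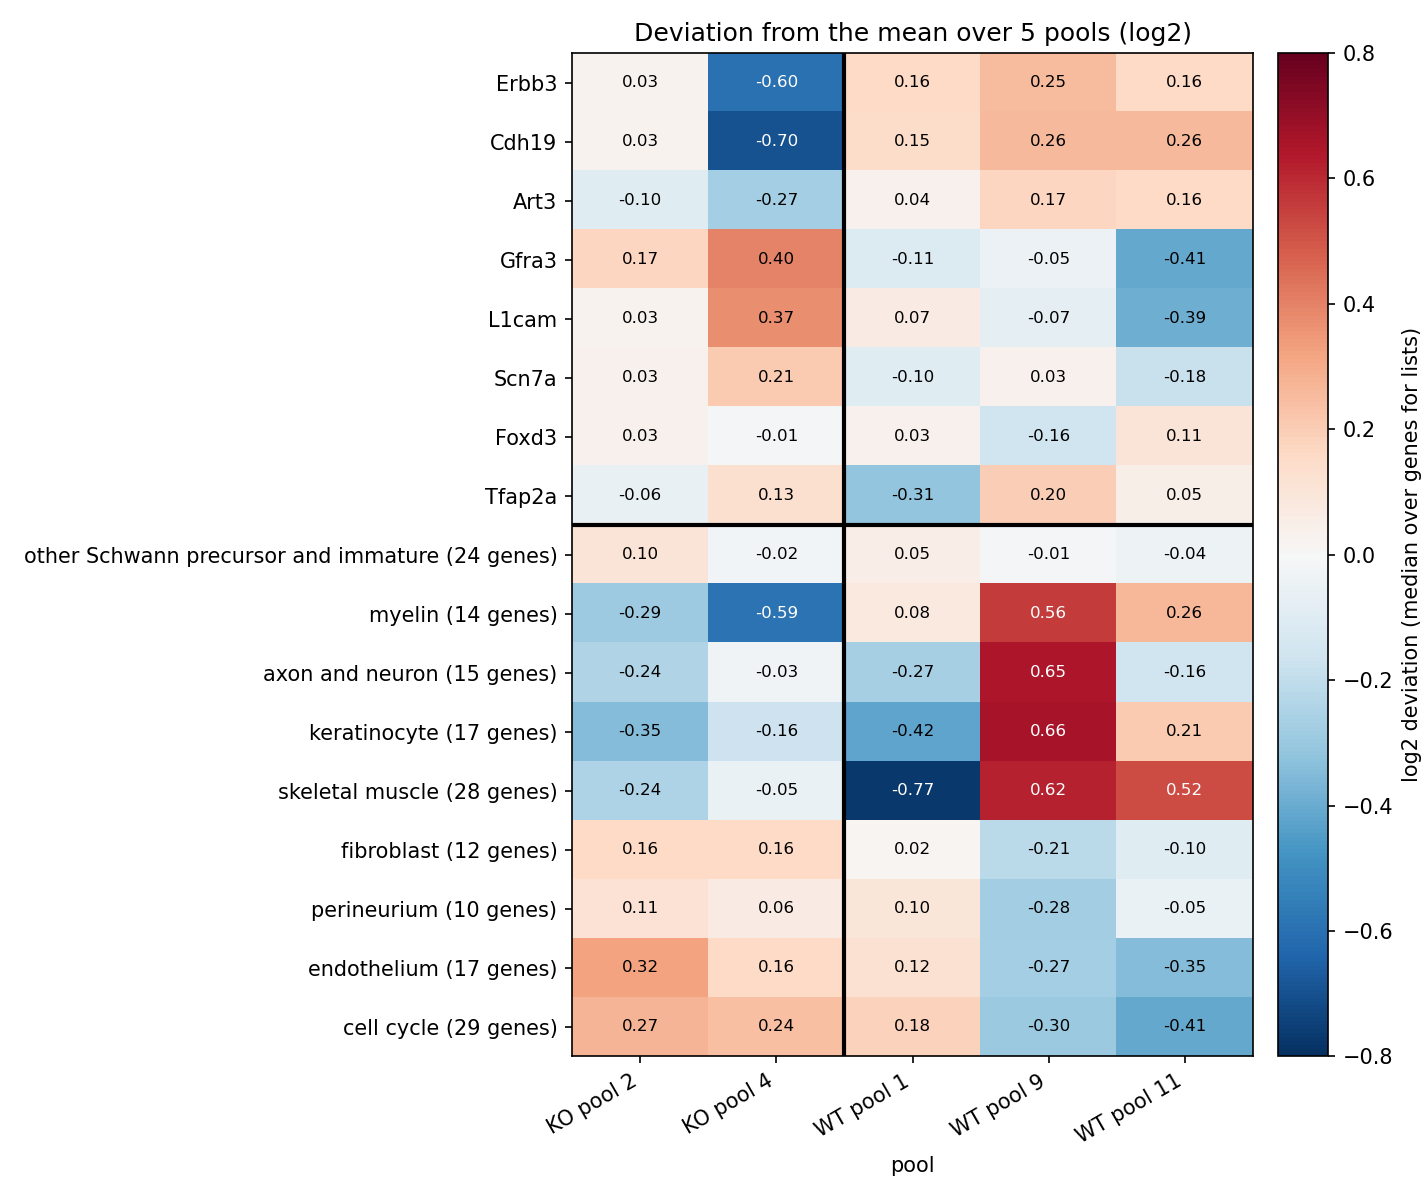
Colours and printed numbers give the log2 deviation of each pool (columns, KO pools on the left) from the mean over the 5 pools, for the 8 genes (upper rows) and as the median over the genes of each list (lower rows). KO pool 4 is the lowest for Erbb3 (-0.60) and Cdh19 (-0.70) and the highest for Gfra3 (0.40) and L1cam (0.37), and WT pools 9 and 11 carry the high skeletal muscle values.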

How the data were processed

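RNA from 5 pools of sciatic nerves was measured on Affymetrix whole-transcript arrays, 1 per pool. The deposited values are log2 expression values made by the authors by RMA, as the submitters' processing notes state. This method corrects background, normalises between arrays and combines probes by median polish. The sources used here do not give its version or settings. The table held 10361 probe sets with log2 values from 2.84 to 14.3, of which 9411 had 1 symbol in the 2016 platform annotation, 384 several and 566 none. The symbols of the 8 genes matched RefSeq by gene identifier.

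KO and WT were compared with limma 3.58.1 in R 4.3.3 on the values as deposited (lmFit and eBayes, no covariates, two-sided, Benjamini-Hochberg over all probe sets), after a test on simulated data. Residual degrees of freedom were 3, and the prior added 17.4. The lower bound on spread in the table removes small variances and bears on that prior, and so on every SE, interval and p. P-values and intervals rest mostly on the prior, which is taken from all probe sets, and less on a gene's own spread between pools. That spread may be technical in part, and 5 arrays limit the precision. Without moderation by the prior the SE rose from 0.188 to 0.238 for Erbb3 and from 0.195 to 0.275 for Cdh19. It rose for L1cam and Tfap2a as well, and fell for Foxd3, Gfra3, Scn7a and Art3, the last from 0.167 to 0.084. All 8 genes were named, whatever their values, with the called genes and the 2 largest differences of fixed lists and 7 further genes fixed by name. The 3 genes with the most similar pattern were named for each of the 8. The genes and lists were chosen with earlier results of these data known. The comparison was repeated under 13 alternatives.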

Additional observations from a re-analysis of the deposited data

How the results depend on the processing

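Under the 13 alternatives 0 of the 8 genes were called at adjusted p below 0.05, and Erbb3, Cdh19, Art3, Gfra3, L1cam and Scn7a kept their direction in all 13. The lowest limma adjusted p was 0.0676 for Cdh19, 0.0958 for Gfra3 and 0.0979 for Erbb3. Tfap2a could be tested in 11 of the 13, since it lay below both level filters. The signs that turned were those of Foxd3 (-0.0575 without WT pool 9, -0.0023 without KO pool 2, -0.021 against WT pool 1 alone, -0.0283 after quantile normalisation), Tfap2a (-0.091 without WT pool 1, -0.038 without KO pool 4), Erbb2 (0.021) and Kctd1 (0.0263) without KO pool 4, and Gfra2 (-0.0015 against WT pool 1 alone). The median difference of the 8 genes was 0.096 after centring on array medians, where that of all probe sets was 0.0575. Leaving out 1 pool at a time gave medians from -0.026 to 0.082, 0 to 3 genes past 1.5-fold at unadjusted p below 0.05, 4 to 6 genes without overlap and 0 to 105 probe sets called in all, and quantile normalisation put 1 gene past the looser rule. Against 70 probe sets called in all, the alternatives called 0 against WT pool 1 alone, 1 each after median centring and quantile normalisation, 0 without moderation, 158 with limma-trend, 148 with a robust prior and 287 above the 50th percentile of level. The cause of these shifts was not tested. Fits without a KO pool assume that the lone KO pool varies like the WT pools. Groups of fewer pools also overlap less readily. When a pool was left out, the shares of all probe sets past the looser rule or without overlap were not counted. The counts of 0 to 3 and 4 to 6 genes therefore have no background, and no change in the 8 genes is read from them. Left out 1 at a time, the pools gave ranges of -0.0575 to 0.075 for Foxd3, -0.091 to 0.1645 for Tfap2a, -0.728 to 0.021 for Erbb2 and -0.522 to 0.0263 for Kctd1. Lrig3 and Sox9 were called in 2 alternatives each and Scn10a in 1. The call of Scn10a was without WT pool 11 (-1.33), where WT pools 1 and 9 read 6.82 and 9.05. That fit, which called 105 probe sets, gave every gene named here the same SE (0.256). A gene's own spread did not enter it, so its calls say little about single genes. The rise of Id3 was called in 4 and that of Moxd1 in 5 of the 13 alternatives. Of the myelin genes that fell, Cldn19, Gldn and Mag were called in 5 and Pmp2, Egr2 and Fa2h in 4 of the 13. Ncmap was called in 3 of the 12 alternatives in which it could be tested. No paired analysis was possible because the KO and WT pools share no replicate number. Signal over background cannot be read from the values used here, which limits Tfap2a most.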
